A study of Mus musculus with 16 samples.

Results

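The 10 genes described here encode proteins of mature skeletal muscle fibres, and they were read in 16 mouse mammary tumours. They are Acta1, Atp2a1, Tnni2, Tnnc2, Tnnt3, Mylpf, Myh4, Myh1, Ckm and Mb, and a probe belonged to them when the array annotation gave it that symbol, which made 12 probes for 10 of the 16593 genes with a named probe. RNA came from MMTV-Neu tumours of strain FvB, in which a mouse mammary tumour virus promoter drives the Neu oncogene, and each tumour was hybridised to 1 Illumina mouse bead array. Of the tumours, 9 were secondary tumours grown from a transplanted single tumour-initiating cell (single TIC), 2 were secondary tumours grown from transplanted lineage-negative cells (lin-), and 5 were primary tumours. All were taken while below 1 cm across. The names of secondary tumours start with WT and those of primary tumours with N, and the labels explain neither prefix, so the genotype of the transplant hosts is unclear here, as is whether tumours shared a donor animal. Host and tumour origin therefore cannot be told apart, and the p-values cover only the variation among the arrayed tumours, which may not be independent.

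Skeletal muscle contracts when calcium released inside the fibre binds troponin on the actin thin filament, which lets myosin heads of the thick filament pull on it. Calcium is then pumped back into the sarcoplasmic reticulum, and creatine kinase and myoglobin help to supply the contracting fibre with ATP and oxygen. Mammary epithelium is not striated muscle, but the mammary fat pads of a mouse lie under the skin next to the muscle of the body wall. Myoglobin differs from the other genes in that human breast carcinomas have been described to make it.

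Muscle-specific genes often carry E-boxes, bound by MyoD-family factors, and CArG boxes, bound by serum response factor, close to their start. RefSeq promoter sequence (build GRCm38.p6, the C57BL/6J reference and not FvB) was given for 8 of the 10 genes, without Tnnt3 and Tnni2. The 250 bases before the table's start site are shown for the 3 genes with the largest excess in the tumour named primary 1 among those with an entry, and for Ckm, which was detected in no tumour. Capitals mark E-boxes (CANNTG, a motif that reads the same on both strands) and the CArG box, and no marked motifs overlap. Acta1 is given from chr8:123894776-123895025 on the minus strand, Atp2a1 from chr7:126463074-126463323 on the minus strand, Tnnc2 from chr2:164779735-164779984 on the minus strand and Ckm from chr7:19410844-19411093 on the plus strand, each 5′ to 3′. The Atp2a1 window ends inside the annotated range of the gene, because the table's start site lies within it.
Acta1: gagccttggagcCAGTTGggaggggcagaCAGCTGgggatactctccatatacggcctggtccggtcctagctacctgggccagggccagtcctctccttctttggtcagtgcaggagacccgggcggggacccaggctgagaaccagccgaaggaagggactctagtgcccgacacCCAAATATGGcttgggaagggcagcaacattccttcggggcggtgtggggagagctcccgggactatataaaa
Atp2a1: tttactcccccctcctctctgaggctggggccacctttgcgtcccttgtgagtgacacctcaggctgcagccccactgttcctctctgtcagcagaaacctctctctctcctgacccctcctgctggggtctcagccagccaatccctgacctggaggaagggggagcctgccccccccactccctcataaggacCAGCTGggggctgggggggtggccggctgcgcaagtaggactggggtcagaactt
Tnnc2: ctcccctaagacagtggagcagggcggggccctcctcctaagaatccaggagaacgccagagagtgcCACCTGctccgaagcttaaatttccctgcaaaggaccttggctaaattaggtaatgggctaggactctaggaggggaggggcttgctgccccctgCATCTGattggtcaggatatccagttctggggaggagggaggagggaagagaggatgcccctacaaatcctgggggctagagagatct
Ckm: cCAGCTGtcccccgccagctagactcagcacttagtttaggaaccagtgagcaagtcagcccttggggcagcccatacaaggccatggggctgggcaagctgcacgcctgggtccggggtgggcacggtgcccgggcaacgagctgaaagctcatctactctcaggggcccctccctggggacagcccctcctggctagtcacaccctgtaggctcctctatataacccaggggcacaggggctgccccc
The Acta1 window held 2 E-boxes and 1 CArG box, Atp2a1 and Ckm held 1 E-box each, and Tnnc2 held 2. An E-box was found in 7 of the 8 members' windows, against 66.2% of the 32851 promoters of this length in the table. A CArG box was found in 2 of the 8, Acta1 and Myh4, against 1.47% of all promoters. The MEF2 motif was searched on both strands in a strict form only, which was found in 0 of the 8 and in 0.508% of all promoters. The Myh4 and Myh1 windows hold a match to a looser form that also allows T as the first base. The strict search therefore does not show that the windows lack MEF2 sites, and the looser form was not counted over all promoters. These matches describe letters in the reference and not sites in use. The windows did not separate the genes that were detected from those that were not, since Ckm and Myh4 had matches and were detected nowhere.

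Values are log2 normalized intensities, and a gene counts as detected in a tumour when its deposited detection p was under 0.05. Probes bind with different strength, so levels are compared between tumours for 1 gene and not between genes. Mean raw intensity lay between 805 and 1031 over the 16 arrays and 48.7% to 51.2% of probes were detected, so no array was dim as a whole. Primary 1 and single TIC 1, the tumours with the highest muscle signal, had mean raw intensities of 840 and 937, inside that range. In bulk tissue, fewer cells of a type and less RNA per cell cannot be told apart.

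The muscle signal sat in few tumours, from more than 1 group. Primary 1 carried it most strongly, single TIC 1 carried a weaker one, and single TIC 8 a trace. By the rule that a gene is detected and lies at least 1 log2 unit above its median over the 16 tumours, 6 of the 10 genes were raised in primary 1, where 0.765% of all 16593 genes were. The 6 were Acta1, Atp2a1, Tnni2, Tnnc2, Tnnt3 and Mylpf. Single TIC 1 had 2, Acta1 and Atp2a1, where 1.4% of all genes passed, and single TIC 8 had 1, Acta1, where 0.603% did. The other 13 tumours had 0 of 10, where 0.35% to 1.66% of all genes passed. The counts depended on the background correction: with the authors' processed values, or with no background correction, they were 3 in primary 1, 1 in single TIC 1 and 0 in single TIC 8. Single TIC 8 had 0 also with an offset of 50, a detection p under 0.01 or a margin of 2 log2 units. Members and rule were chosen with earlier results of these data known, so these shares are a description.

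**Figure D1:**
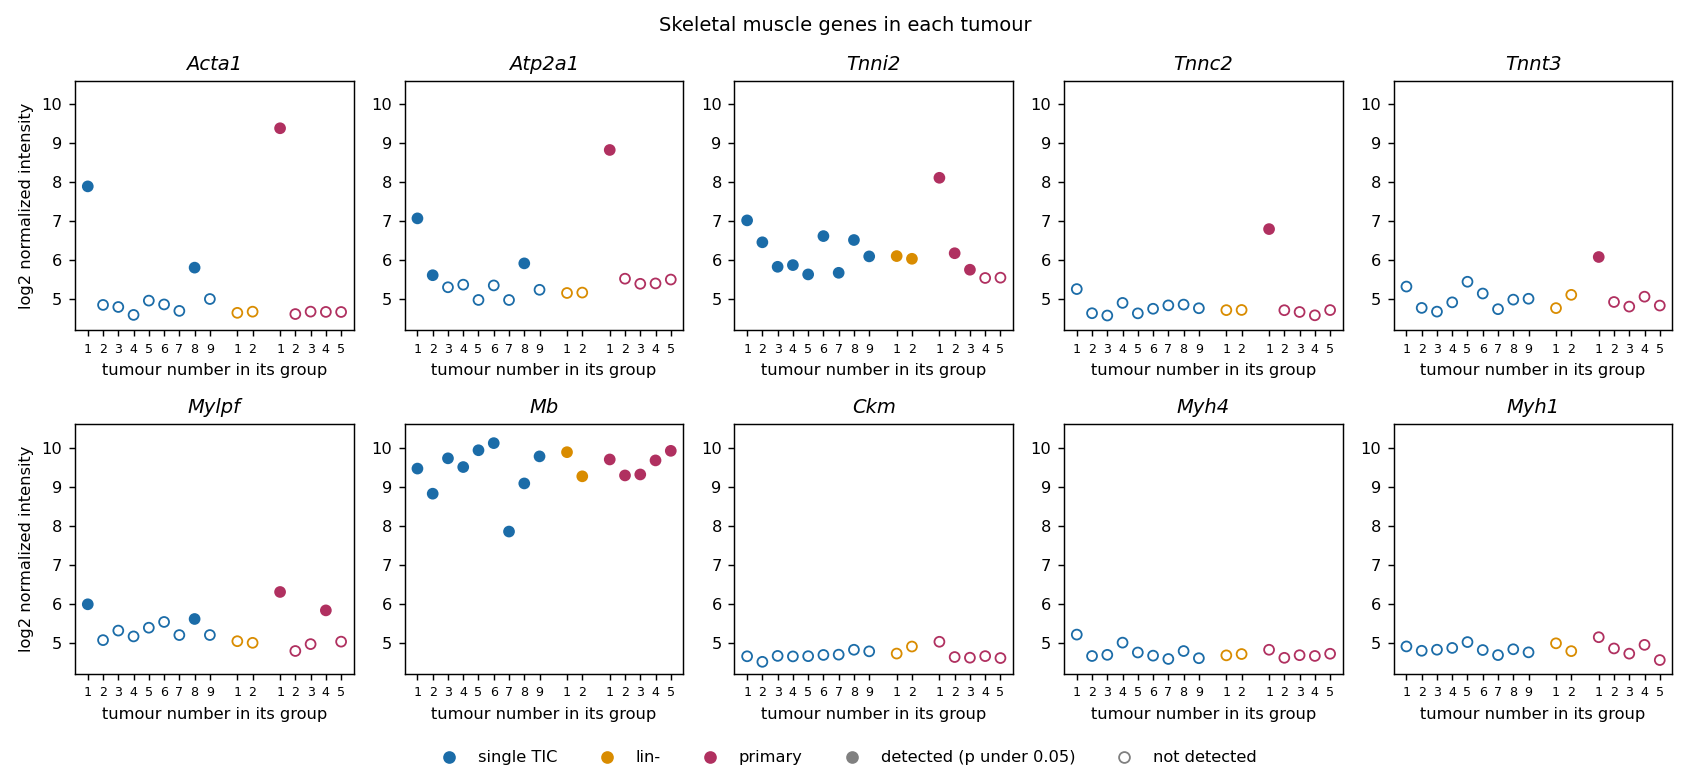
Log2 normalized intensity (y axis) of the 10 muscle genes, 1 panel per gene, in each of the 16 tumours (x axis, numbered within single TIC, lin- and primary), with filled points detected and open points not detected. Primary 1 is the highest point for Acta1 at 9.39 and Atp2a1 at 8.83, whereas Mb is filled in all 16 tumours and Ckm, Myh4 and Myh1 in none.

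Among thin-filament genes, Acta1, the actin of skeletal muscle (chromosome 8, 123891758 to 123894775), showed the widest spread. In single TIC tumours its level had a lowest value of 4.60, a median of 4.87 and a highest of 7.90, in lin- tumours it was 4.65 and 4.68, and in primary tumours it was 9.39, 4.62, 4.68, 4.68 and 4.67. It was detected in 3 tumours, primary 1 at 9.39, single TIC 1 at 7.90 and single TIC 8 at 5.81. Its level in primary 1 was at least 13.6-fold above the mean bound of the 13 tumours where it was not detected, and that in single TIC 1 at least 4.82-fold. Such a bound sets, for each undetected tumour, the higher of its own value and the lowest signal counted as detected on that array. Without primary 1 the SD of Acta1 among primary tumours was 0.03, against 2.11 with it (n = 4 and 5). The smaller SD describes values at background.

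The fast troponin subunits, which make the thin filament respond to calcium, were detected together in primary 1 alone. Tnni2, the inhibitory subunit of fast fibres, had a lowest value of 5.64, a median of 6.10 and a highest of 7.02 in single TIC tumours, values of 6.11 and 6.04 in lin- tumours and of 8.12, 6.18, 5.76, 5.55 and 5.56 in primary tumours. It was detected in 14 tumours, and primary 1 and single TIC 1 were the highest. Tnnc2, the calcium-binding subunit of fast fibres, had a lowest value of 4.58, a median of 4.77 and a highest of 5.26 in single TIC tumours, values of 4.72 and 4.73 in lin- tumours and of 6.80, 4.72, 4.67, 4.59 and 4.72 in primary tumours. It was detected in primary 1 only, at least 2.26-fold above the bound of the other 15. Tnnt3, the fast subunit that anchors troponin to tropomyosin, had a lowest value of 4.68, a median of 4.99 and a highest of 5.45 in single TIC tumours, values of 4.77 and 5.11 in lin- tumours and of 6.09, 4.93, 4.81, 5.07 and 4.84 in primary tumours. Again only primary 1 was detected, at least 1.38-fold above the bound of the other 15. Tnnt3 and Tnnc2 thus gave single TIC 1 no detectable signal, although Acta1 and Atp2a1 did.

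Atp2a1, the calcium pump of the sarcoplasmic reticulum in fast fibres, followed Acta1. It had a lowest value of 4.98, a median of 5.36 and a highest of 7.08 in single TIC tumours, values of 5.16 and 5.17 in lin- tumours and of 8.83, 5.53, 5.40, 5.41 and 5.51 in primary tumours. Detection was limited to primary 1, single TIC 1, single TIC 8 at 5.92 and single TIC 2 at 5.62. Primary 1 lay at least 9.17-fold and single TIC 1 at least 2.72-fold above the bound of the 12 tumours where it was not detected.

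The thick-filament genes did not behave alike. Mylpf, the regulatory light chain of fast myosin, had a lowest value of 5.06, a median of 5.31 and a highest of 5.98 in single TIC tumours, values of 5.03 and 4.99 in lin- tumours and of 6.30, 4.78, 4.96, 5.82 and 5.02 in primary tumours. It was highest in primary 1 and single TIC 1, but was detected also in primary 4, where Acta1 was not. The heavy chains Myh4 and Myh1, motors of fast fibres, were detected in 0 of 16 tumours. Myh4 ranged from 4.58 to 5.20 with its highest value in single TIC 1, and the brighter of the Myh1 probes by mean ranged from 4.55 to 5.14 with its highest in primary 1. Myh1 and Myh4 are close paralogs whose transcripts a probe may not tell apart.

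The energy-supply genes were the exceptions. Ckm, the creatine kinase of muscle, was detected in 0 of 16 tumours and ranged from 4.50 to 5.02, and its highest value, in primary 1, had a detection p of 0.247. Mb, the oxygen-binding myoglobin, was detected in all 16 tumours by both of its probes. By the brighter probe its lowest value was 7.85, its median 9.50 and its highest 10.12 in single TIC tumours, it was 9.88 and 9.26 in lin- tumours, and 9.70, 9.29, 9.31, 9.67 and 9.92 in primary tumours. Its lowest tumour was single TIC 7 and its highest single TIC 6, while primary 1 and single TIC 1 lay inside the range of the rest. The second Mb probe ranged from 6.52 to 8.30, and the probes' Pearson r over the 16 tumours was 0.918.

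The rule's threshold divided close values. Tnni2 in single TIC 1 lay 0.95 log2 units above its median and did not pass, and Mylpf and Tnnt3 in primary 1 lay 1.11 and 1.12 above theirs and did.

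Pairs of members passed a test of agreement with primary 1 and single TIC 1 included and not without them. Of the 5 members detected on at least 2 arrays (Acta1, Atp2a1, Tnni2, Mylpf and Mb), all 10 pairs were correlated over tumours, with p-values by permutation and adjusted over the 10 pairs. Over 16 tumours 6 pairs passed an adjusted p of 0.05 by Pearson's r, every pair without Mb, and 1 passed by Spearman's rho. Because primary 1 and single TIC 1 stand apart from the rest, no r is given over the 16. Over the 14 others 0 of the 10 pairs passed by either measure, with 0.222 as the smallest permutation p of Pearson's r after adjustment. Among these 14 tumours Acta1 was detected in 1 and Atp2a1 and Mylpf in 2 each, so most of the values correlated are at background and agreement could hardly be seen. Acta1 and Atp2a1 then had r = 0.52 (permutation p = 0.0756, adjusted p = 0.222) and rho = -0.05 (permutation p = 0.867). Acta1 and Tnni2 had r = 0.49 (permutation p = 0.0629) and rho = 0.27 (permutation p = 0.340), and Acta1 and Mylpf had r = 0.48 (permutation p = 0.0889) and rho = 0.58 (permutation p = 0.0339). The 4 pairs with Mb had r between -0.06 and 0.19 over these 14 tumours. Within the 9 single TIC tumours, with single TIC 1 among them, 4 pairs passed by Pearson's r in an exact permutation test and 0 by Spearman's rho. In the plots of Acta1 against the other genes, the 3 tumours in which Acta1 was detected are ordered alike by Acta1, Atp2a1, Tnni2 and Mylpf. Mb orders these 3 tumours alike too, but all 3 lie inside the range of the others.

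**Figure D2:**
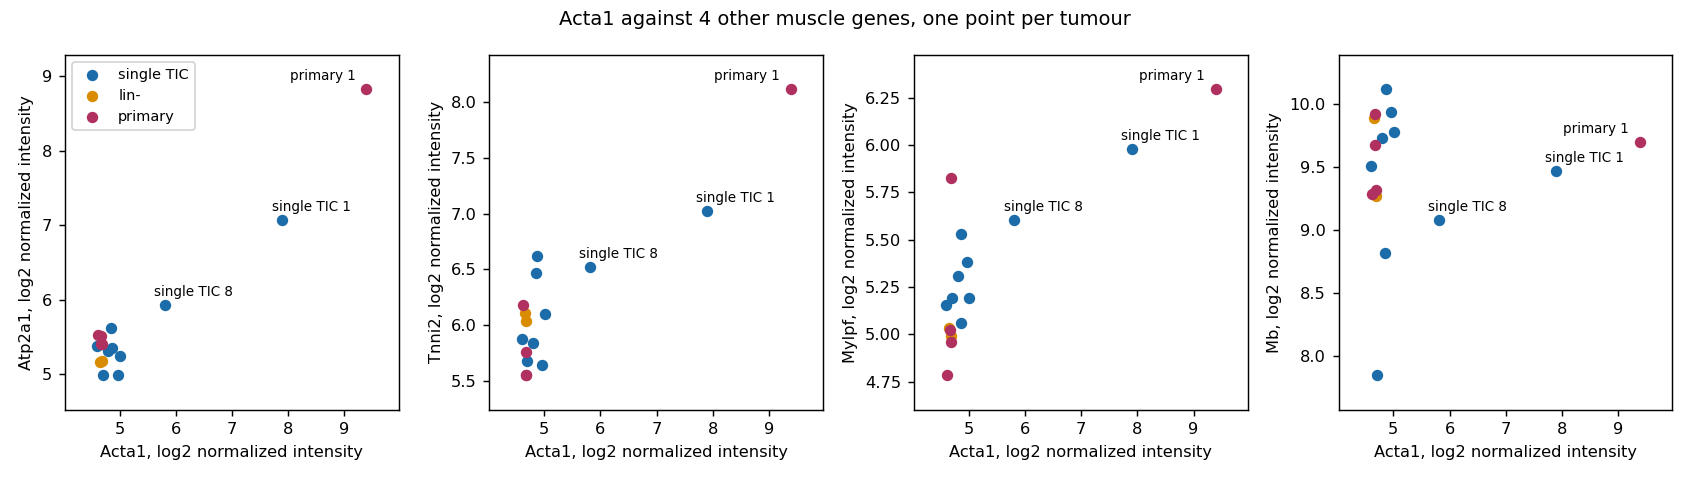
Log2 normalized intensity of Acta1 (x axis) against that of Atp2a1, Tnni2, Mylpf and Mb (y axis), with 1 point per tumour coloured by group. Primary 1, single TIC 1 and single TIC 8 spread out along Acta1 at 9.39, 7.90 and 5.81, and the other 13 tumours gather where Acta1 was not detected.

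The same tumours stood out when every gene was ranked by the difference between its measured level and its 16-tumour median. Among all 16593 genes, the 4 with the largest difference in primary 1 were Myl1 at 5.19 log2 units, Acta1 at 4.64, Atp2a1 at 3.44 and Pvalb at 2.76. Their medians were not above background and probes differ in strength, so the ranks are a description and the differences are no folds. Against the tumours where each was not detected, primary 1 lay at least 23.8-fold higher for Myl1 and at least 3.86-fold higher for Pvalb, beside at least 13.6-fold for Acta1 and at least 9.17-fold for Atp2a1. Myl1 encodes the essential light chain of fast myosin and Pvalb the calcium buffer parvalbumin, and neither is among the 10 genes. Tnnc2 was at rank 7, Tnni2 at rank 8, Tnnt3 at rank 74 and Mylpf at rank 84, but Ckm was at rank 1984. In single TIC 1, Myl1 at 3.67 log2 units had rank 9 and Acta1 at 3.14 rank 10, with Pvalb at 62 and Atp2a1 at 75. The 8 genes above Myl1 in single TIC 1, led by Dcpp1 at 6.15, are in none of the muscle lists. Myl1 was detected in 5 tumours, single TIC 1 at 8.70, single TIC 2 at 6.52, single TIC 8 at 6.83, single TIC 9 at 5.82 and primary 1 at 10.22. Single TIC 2 and single TIC 9 were detected for Myl1 and not for Acta1.

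**Figure D3:**
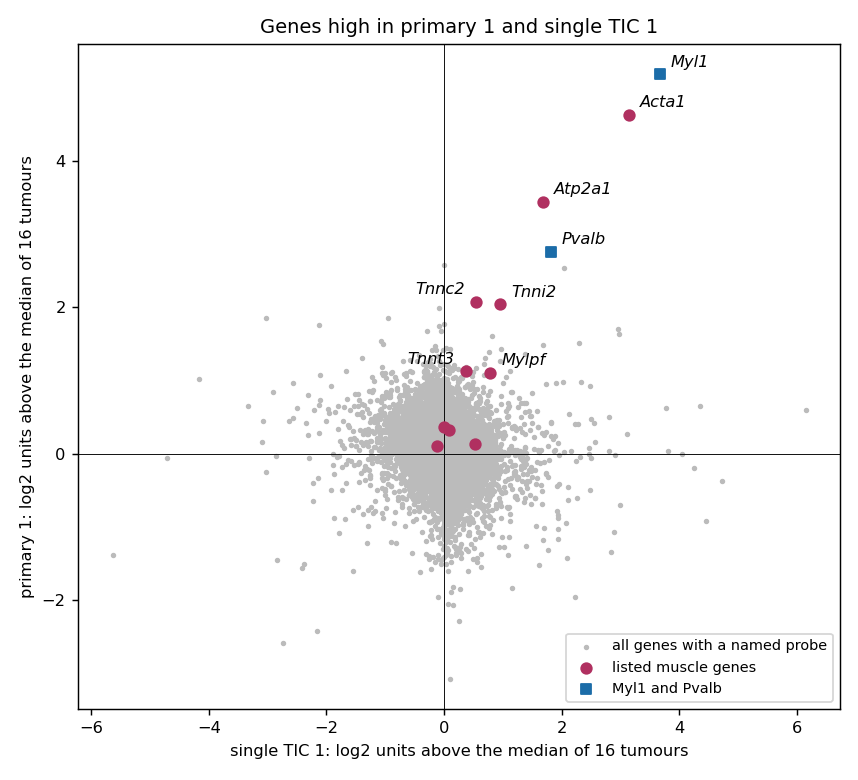
Log2 units above the 16-tumour median in single TIC 1 (x axis) and in primary 1 (y axis) for all 16593 genes with a named probe (grey), with the 10 muscle genes as circles and Myl1 and Pvalb as squares. Myl1, Acta1, Atp2a1 and Pvalb lie highest in primary 1, at 5.19, 4.64, 3.44 and 2.76, and also above the median in single TIC 1, while the 4 unlabelled circles of Ckm, Myh4, Myh1 and Mb lie near the centre.

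Genes were also ranked by Pearson's r with the mean centred level of the 5 members over 16 tumours, a description that the same tumours shape. Outside the members Pvalb came first with 0.97 and Myl1 next with 0.93, beside 0.97 for both Acta1 and Atp2a1, which are part of that mean. Without primary 1 and single TIC 1 the r of Myl1 was 0.46, and Pvalb was detected in no other tumour, so no r is given for it there. Ano6, a membrane scramblase, had 0.84 and 0.59, and Timm10b, a mitochondrial import protein, had 0.80 and 0.50. Stkld1 had 0.79 over 16 tumours and -0.10 without these tumours.

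No member passed the test between groups. Of the 5 members that passed the filter of detection on at least 2 arrays, limma called 0 at an adjusted p under 0.05 for single TIC against primary, where 6.26% of the 9903 genes tested were called (2.13% higher and 4.13% lower). For all secondary tumours against primary tumours it called 0 of 5, against 7.65% of genes (2.52% higher and 5.13% lower), and for lin- against primary and for single TIC against lin- it called 0 of 5, against 0% of genes. At an unadjusted p under 0.05 the count was also 0 of 5 in each of the 4 comparisons, where 2507, 2608, 975 and 167 genes passed. The members that passed are those detected in more than 1 tumour, so they do not stand for all 10. Fitted without a filter, 0 of the 10 were called in any comparison, and the smallest adjusted p by limma was 0.506. The shares of all genes given above belong to the filtered fit and not to this one.

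By group, the means moved with primary 1 and single TIC 1. Acta1 averaged 5.28 ± 1.04 in single TIC tumours, 4.67 ± 0.02 in lin- tumours and 5.61 ± 2.11 in primary tumours (SD, n = 9, 2 and 5), and its log2 change of single TIC over primary was -0.33 (SE 0.72, limma adjusted p = 0.816). Atp2a1 averaged 5.54 ± 0.65 in single TIC tumours, 5.17 ± 0.01 in lin- tumours and 6.13 ± 1.51 in primary tumours, with a log2 change of -0.59 (SE 0.50, limma adjusted p = 0.481) for single TIC over primary. Tnni2 averaged 6.20 ± 0.48 in single TIC tumours and 6.23 ± 1.09 in primary tumours, with a log2 change of -0.04. Mylpf averaged 5.38 ± 0.29 in single TIC tumours and 5.38 ± 0.65 in primary tumours, and Mb averaged 9.36 ± 0.70 in single TIC tumours and 9.58 ± 0.27 in primary tumours, with log2 changes of 0.00 and -0.21. The order of primary, single TIC and lin- means was thus the same for Acta1, Atp2a1 and Tnni2, and no neighbouring pair in it passed the test. Without primary 1 and single TIC 1, a setting added after the data were seen, the log2 change of single TIC over primary was 0.29 for Acta1 and -0.11 for Atp2a1 (SE 0.17 and 0.15, limma adjusted p = 0.364 and 0.716), and 0 of 5 members were called. For Tnni2 the log2 change was 0.33 (SE 0.20, limma adjusted p = 0.367). The signs for Acta1 and Tnni2 therefore turned when these tumours were left out, and with them the order of those means. Acta1 was then detected only in single TIC 8, and Atp2a1 only in single TIC 8 and single TIC 2. Their changes and signs without these tumours thus lie mostly between values at background. The median log2 change over the 5 members was -0.21 for single TIC over primary, against -0.02 over all genes tested.

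No member had single TIC or secondary tumours that did not overlap the primary tumours, where 2.48% and 1.92% of genes did not. Atp2a1 was the only member whose lin- tumours did not overlap the primary tumours, where 14.9% of genes had groups that did not overlap. It was not detected in the lin- tumours, and among primary tumours it was detected in primary 1 only. Its log2 change of lin- over primary was -0.97 (SE 0.74, limma adjusted p = 0.715). The 4 other primary tumours averaged 5.46, which is not above background, so no fold is given. Mylpf was the only member whose single TIC tumours, at 5.06 and above, did not overlap the lin- tumours at 5.03 and 4.99, where 2.38% of genes did not overlap. Mylpf was not detected in either lin- tumour or in 7 of the 9 single TIC tumours, so this gap lies between values at background.

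Acta1 and Atp2a1 had the widest spread of the 5 members. The SD over 16 tumours was 1.36 for Acta1, 0.97 for Atp2a1, 0.66 for Tnni2, 0.55 for Mb and 0.42 for Mylpf, against a median of 0.28 over genes tested. For Acta1, 99.2% of tested genes had a smaller SD, and for Mylpf 78.1%. Leaving out single TIC 1 brought the SD among single TIC tumours to 0.37 for Acta1 and 0.31 for Atp2a1, while that of Mb was 0.75. Leaving out primary 1 gave an SD of 0.07 for Atp2a1 and 0.30 for Tnni2 among the other primary tumours. Atp2a1 was detected in none of those primary tumours, so its SD there describes values at background. Most of the Acta1 and Atp2a1 values left among single TIC tumours were not detected either.

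Many other genes in the muscle lists were not detected in any tumour, and some genes were in more than 1 list. Over all genes, 9903 of the 16593 with a named probe passed the filter. Of 24 measured genes in a list of other sarcomere genes, 14 were detected nowhere and 9 passed the filter. Ttn, the giant elastic protein, and Tcap, its cap at the Z-disc, were among those detected in 0 tumours. Of the 9 that passed, Myl1, Tnnc1, Tpm1 and Myom1 were highest in primary 1. Tpm2, Actn2, Actn3, Ldb3 and Pdlim3 were highest in other tumours, and Actn3 was lowest in single TIC 1. For excitation-contraction coupling 9 of 16 measured genes were detected nowhere, including the calcium store protein Casq1, and for muscle energy metabolism 6 of 19, including the muscle glycogen phosphorylase Pygm. In the list of slow-fibre and cardiac genes 10 of 16 were detected nowhere, among them Tnnt1, Tnni1, Myh7, Myl2 and Myl3. Of the 3 that passed the filter, Tnnc1 was detected in 7 tumours and was highest in primary 1 at 6.08. Tnni3 was detected in 10 tumours and Atp2a2 in 16, and both were highest in other tumours. In the myogenic and satellite-cell list 9 of 12 were detected nowhere, among them Pax7, the satellite-cell factor, and Myod1 and Myf6, factors of muscle differentiation. The other 3 were detected widely and limma called none of them in any comparison. Myog, the differentiation factor myogenin, was detected in all 16 tumours, between 5.68 and 6.75, with its highest level in single TIC 1 and 6.57 in primary 1. Des, the intermediate filament desmin, which smooth muscle also makes, was detected in 11 tumours and was highest in primary 1 at 6.77, with 6.23 in single TIC 1. Mef2c, a factor of muscle and other tissues, was detected in all 16, with 8.12 in primary 1 and its lowest level, 7.10, in single TIC 1. The mean centred level of these 3 genes was highest in primary 1, at 0.55, and was 0.09 in single TIC 1. Beyond Myl1 and Pvalb, primary 1 was the only tumour with detection of Cox6a2, the muscle isoform of a cytochrome oxidase subunit, at 6.09, and of Csrp3, a Z-disc protein, at 5.81. Detection in 1 tumour alone was not particular to primary 1. Casq2 was detected only in primary 4, at 6.08, Nppa only in primary 5, at 6.06, and Xirp1 and Clcn1 each in 1 single TIC tumour. Pgam2, of the energy list, was detected in 2 tumours and was highest in single TIC 1 at 5.78 and primary 1 at 5.75. The list of other sarcomere genes, which holds Myl1, had a mean centred level of 0.85 in primary 1 and 0.25 in single TIC 1. For coupling, which holds Pvalb, these levels were 0.43 and 0.31. For energy metabolism they were 0.22 and -0.25, and for slow-fibre and cardiac genes 0.35 and -0.31.

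Among these 5 muscle lists, limma called 1 gene and it did not follow the members. Actn2, the alpha-actinin of the Z-disc, had a lowest value of 4.84, a median of 5.03 and a highest of 5.45 in single TIC tumours, values of 4.80 and 4.99 in lin- tumours and of 6.24, 6.02, 6.27, 5.53 and 5.79 in primary tumours. It was detected in 0 of 9 single TIC, 0 of 2 lin- and 4 of 5 primary tumours, all but primary 4. The single TIC and primary tumours did not overlap, where 2.48% of genes did not. The nearest values, 5.45 in single TIC 3 and 5.53 in primary 4, were both not detected, so this gap lies between values at background. Actn2 fell in single TIC tumours, to 5.12 ± 0.24, against 5.97 ± 0.31 in primary tumours (SD, n = 9 and 5), which is at least 1.28-fold lower (log2 change -0.85, SE 0.14, limma adjusted p = 0.00648). In all secondary tumours Actn2 fell likewise (log2 change -0.89, SE 0.14, limma adjusted p = 0.00321), against a background of 5.13% of genes lower. With mean raw array intensity as a covariate the limma adjusted p was 0.0631 for single TIC and 0.0412 for all secondary tumours. Its level in single TIC 1 was 5.03, so the tumour with the next-highest Acta1 showed no Actn2 signal.

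**Figure D4:**
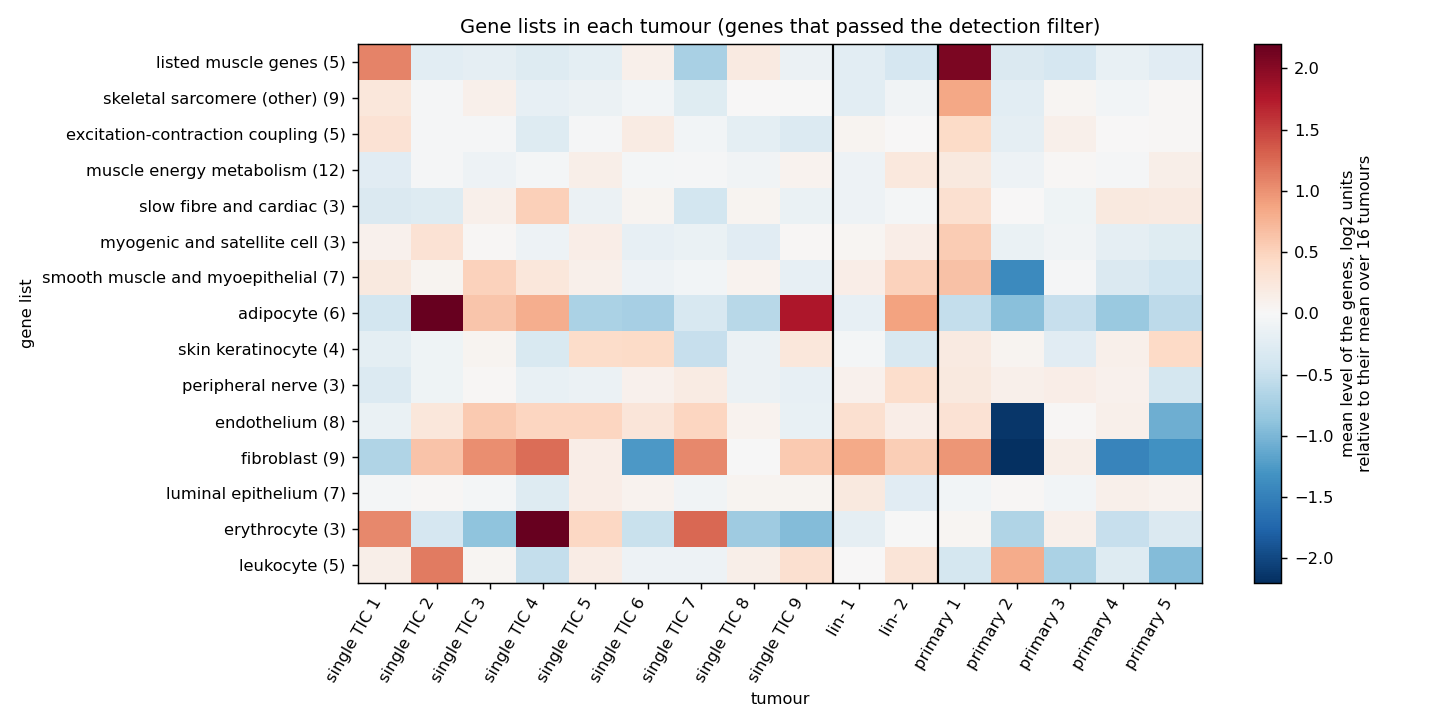
Mean level of the genes of each list that passed the filter (rows, number of genes in brackets), in log2 units relative to their mean over 16 tumours, in each tumour (columns). The row of listed muscle genes is highest in primary 1 at 2.07 and single TIC 1 at 1.10, and the adipocyte row is highest in single TIC 2 at 2.19.

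Lists of other cell types were set beside the muscle signal. The mean centred level of the 5 members was 2.07 in primary 1, 1.10 in single TIC 1, 0.20 in single TIC 8 and 0.10 in single TIC 6, and between -0.71 and -0.13 in the 12 other tumours. Mb is part of this mean although it did not follow the other members. Single TIC 6 had the highest Mb, and single TIC 7, at -0.71 in this mean, the lowest. The order of the lower tumours therefore partly reflects Mb. The luminal epithelium list, 7 of whose 8 measured genes passed the filter, was at -0.07 in primary 1 and -0.04 in single TIC 1. Its summed level ranged from 82.2 to 85.2 in single TIC, from 82.4 to 85.6 in lin- and from 83.7 to 84.9 in primary tumours. The fibroblast list, with 9 of 9 measured genes passing, was at 0.98 in primary 1 and at -2.42, 0.13, -1.45 and -1.33 in the other primary tumours, and 2 of its genes, Col1a1 and Fbln1, were past the signal rule in primary 1. Fibroblast summed levels ranged from 56.8 to 79.2 in single TIC, from 73.0 to 75.7 in lin- and from 46.4 to 77.0 in primary tumours. In single TIC 1 the fibroblast list was at -0.66, so it was not high in both tumours. The erythrocyte list, with 3 of 3 measured genes passing, was at 0.05 in primary 1 and 1.06 in single TIC 1, with summed levels of 25.1 to 34.6 in single TIC, 27.4 to 27.9 in lin- and 26.0 to 28.3 in primary tumours. The adipocyte list was at -0.53 in primary 1 and -0.41 in single TIC 1, and its highest tumour was single TIC 2, where no member passed the signal rule. Atp2a1 at 5.62 and Myl1 at 6.52 were nevertheless detected in single TIC 2. The next-highest adipocyte tumour, single TIC 9 at 1.78, had Myl1 detected at 5.82. Single TIC 8, where Myl1 was also detected, had an adipocyte level of -0.61. The smooth muscle and myoepithelial list was at 0.65 in primary 1 and 0.21 in single TIC 1, and the skin keratinocyte list at 0.20 and -0.21. The part of these other cell types in the muscle signal was not tested.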

How the data were processed

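The deposited table gives, per the file headers, a non-normalized intensity on a linear scale and a detection p-value for each of 25697 probes in each tumour. A second table of the authors holds processed intensities on a linear scale. The submitters' processing notes name BeadStudio. For its version and for a genome build the entry is: not given in the sources used here. Groups came from the labels.

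From the raw intensities, limma 3.58.1 (R 4.3.3) corrected background with nec (offset 16), then quantile normalization and log2 were applied, which understates changes of dim genes. Probes detected (p under 0.05) on at least 2 arrays were kept, 14520 probes, with the brightest per gene standing for it (9903 genes). Array annotation gave 23978 probes 1 symbol, 1719 none and 0 several. Of these symbols 23962 matched a RefSeq table by Entrez ID and 0 changed. Group means were compared with lmFit and eBayes and Benjamini-Hochberg adjustment, in a fit with 3 means, and in a fit with 2 means for secondary against primary. Pairwise correlations used 100000 permutations, or all orders for the 9 single TIC tumours. The code was tested on simulated data. The number of arrays limits the precision. Members, named genes (the 10 members, the genes most correlated with them and the listed muscle genes) and lists were chosen with earlier results of these data known. Alternatives changed the background correction, offset, scaling, filters, probe choice, covariate and tumours.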

Additional observations from a re-analysis of the deposited data

Results flagged for a closer look

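Among the 12 member probes and the single TIC and primary groups, 9 of 24 sets had a tumour whose gap to its nearest neighbour took an unusually large share of the group's range. The cutoffs for this share are ones that normally distributed values would pass in about 1 set in 20. Many of these values lie at background with a few far above it, and the same count was not made over all probes. How many sets to expect here is therefore not known. Members share the same tumours, so the sets are not independent. Primary 1 was the tumour in 6 of them, with shares of 0.987 for Acta1, 0.962 for Atp2a1, 0.939 for Tnnc2, 0.881 for Ckm, 0.8 for Tnnt3 and 0.753 for Tnni2. Ckm was detected in no tumour, so its share describes values at background. Single TIC 1 was the tumour in the other 3, with shares of 0.632 for Acta1, 0.551 for Atp2a1 and 0.523 for Tnnc2, where Tnnc2 was not detected in that tumour. The sets of Mylpf, Mb, Myh4 and Myh1 had no such tumour.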

How the results depend on the processing

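The count of members called was 0 in all 4 comparisons under each alternative run, including leaving out each tumour in turn and leaving out primary 1 and single TIC 1 together. The smallest adjusted p of a member by limma ranged, over the fits without 1 tumour, from 0.296 to 0.577 for single TIC against primary and was at least 0.248 for all secondary against primary. Correlated pairs numbered 4 to 6 when 1 tumour was left out, and 0, against 6, without primary 1 and single TIC 1, which are the tumours farthest from the median. With the authors' processed values, or with no background correction, the members past the signal rule were 3 in primary 1, 1 in single TIC 1 and 0 in single TIC 8. An offset of 50 gave 4, 2 and 0, a detection p under 0.01 gave 6, 2 and 0, and a margin of 2 log2 units gave 4, 1 and 0. Genes called among all genes for single TIC against primary numbered 620, 262 to 784 without 1 tumour, and 18 with mean raw intensity as a covariate, 294 without primary 1, 262 without primary 3, 278 without primary 5 and 267 without primary 1 and single TIC 1, an alternative chosen after seeing the data. For all secondary against primary they numbered 758, 32 with the covariate, 373 to 947 without 1 tumour and 381 without those tumours. The cause was not tested. A slide block was not run because the files name no slides. No paired analysis was possible because the labels give no replicate numbers shared between groups. Members near background, such as Ckm, Myh4 and Myh1, are limited by signal and not shown to be absent.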

Other observations

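Apart from genes in the muscle lists used here, few genes shared the pattern of primary 1 and single TIC 1. By a rule chosen after the values were seen, 9 of 16593 genes were detected in both tumours, at least 1 log2 unit above the median in both and higher there than in the other 14 tumours. They were Myl1, Acta1, Atp2a1 and Pvalb, and the genes Vmn1r65, Dab1, Sorcs1, Lmcd1 and Slc41a2, which are in no muscle list used here. Vmn1r65, named for a vomeronasal receptor, was 2.54 above its median in primary 1 and 2.03 in single TIC 1. Dab1, an adaptor of reelin signalling, was 1.71 above in primary 1 and 2.95 in single TIC 1, the reverse order to Acta1. By a rule of being detected in primary 1 and at least 1 log2 unit above every other tumour, 6 genes remained, Myl1, Acta1, Atp2a1, Tnnc2, Tnni2 and Cit, of which 4 are members. Cit, a kinase of cell division, was at 6.49 in primary 1 and 4.86 in single TIC 1.

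Single TIC 1 also lay far above the median for genes in no muscle list used here. Whether other tumours were as high for these genes was not examined. Of the 8 genes with a larger excess over the 16-tumour median than Myl1 in that tumour, 5 belong to the Hoxb cluster of homeobox genes, which set position along the body axis in development. Hoxb5 was 4.72, Hoxb7 4.46, Hoxb4 4.26, Hoxb6 4.04 and Hoxb2 3.81 log2 units above the median. Hoxb6 was detected in 4 tumours, Hoxb5 in 7, Hoxb7 in 8 and Hoxb4 in 9. Their medians therefore lie near background and their differences are no folds. Hoxb2 was detected in 15 tumours, and its median of 6.10 lay above the lowest detected signal of each array. In primary 1 the 5 Hoxb genes were between -0.92 and 0.04 log2 units from the median, so they did not share the muscle pattern. These genes were picked after their values were seen.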
